A study of Mus musculus with 8 samples.

Results

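The regions described here are the wild-type HELLS peaks that shared no base with a wild-type E2F3 peak. They numbered 852 of the 2489 peaks in the deposited wild-type HELLS list, or 34.2%, and the other 1637 peaks overlapped an E2F3 peak by 1 bp or more. The samples were mouse embryonic fibroblasts (MEFs) taken at E13.5, either E2f3-/- or wild type, and each genotype was immunoprecipitated with antibodies against E2F3, HELLS and H3K27me3 and with IgG. The labels gave 8 groups of 1 library each, with no other allele or agent in either genotype, and did not say how many embryos each culture came from. Each ChIP library held between 3799779 and 5640555 distinct reads, a distinct read being 1 per position and strand. The IgG files of both genotypes were identical line by line, so they were used as 1 library of 7219419 distinct reads.

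HELLS, also called LSH, is a helicase of the SNF2 family that remodels nucleosomes and is known for its part in DNA methylation and heterochromatin. E2F3 is a transcription factor that binds promoters of cell cycle genes, and the series title pairs it with HELLS in transcription that depends on E2F3. H3K27me3, the trimethyl mark that a Polycomb repressive complex places on histone H3, covers silenced developmental genes in fibroblasts. HELLS peaks outside E2F3 peaks are the places in the wild-type list where an E2F3 site was not called, and the question was what the other libraries held there. No genome annotation of the mm9 build was used here, so regions are given by position without gene names or sequences.

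Most of the 852 peaks were narrow and rested on few reads. Their median length was 324 bp, against 665 bp at HELLS peaks with an E2F3 peak, and their median tag count in the authors' deposited table was 8 (range 7 to 72), against 29. The authors' score, a −log10 p-value multiplied by 10 that starts at 50 for the cutoff of 1e-05, had a median of 55.3 and a highest value of 114.1. By comparison the median score was 69.7 at peaks with an E2F3 peak, and 314 of those 1637 peaks reached a score of 100, against 8 of the 852. The false discovery rate that MACS gave exceeded 5% for 796 of the 852 peaks and for 1400 of the 1637. Small peaks thus made up most of the set: 361 of the 852 held 7 wild-type HELLS reads, 148 held 8, 177 held 9 to 10, 81 held 11 to 15, and 85 held 16 or more. These values helped to choose the peaks and are given as a description.

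The edge of the set was examined on both sides. The median distance to the nearest wild-type E2F3 peak was 51.8 kb, with a range of 15 bp to 5.03 Mb, and 22 of the 852 peaks lay within 1 kb of one. Nearest to that edge inside the set, the peak at chr5:93635659-93635946 stood 15 bp from an E2F3 peak and held 3 HELLS reads in E2f3-null and 7 in wild-type cells. Just on the other side, the HELLS peak at chr2:119723098-119723412 shared 32 bp with an E2F3 peak, was therefore left out, and held 8 HELLS reads in each genotype. The lowest score in the set, 50.02, belonged to chr2:93101252-93101610, with 2 HELLS reads in E2f3-null and 9 in wild-type cells.

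HELLS reads at these peaks were fewer in E2f3-null than in wild-type cells, and few of the peaks were listed again in the null. The median peak held 2 HELLS reads in E2f3-null cells (range 0 to 87) and 8 in wild-type cells (range 7 to 71), and 127 of the 852 held none in the null. Only 59 of the 852, or 6.93% (95% Clopper-Pearson interval 5.31 to 8.84%), overlapped an E2f3-null HELLS peak, against 1197 of 1637, or 73.1% (70.9 to 75.3%), of the peaks with an E2F3 peak. Summed over the 852 peaks and scaled by reads outside all peaks, the ratio of E2f3-null to wild-type HELLS reads was 0.460 (95% exact binomial interval 0.443 to 0.477), against 1.06 (1.05 to 1.08) at peaks with an E2F3 peak. The wild-type HELLS reads entered the choice of both sets, so peaks chosen at a few reads lean towards a ratio below 1, and these ratios carry no test. The share listed in the null was 19.3% of 1225 peaks when peaks were matched by summits within 250 bp. That rule also chose the set anew and took in HELLS peaks that overlap an E2F3 peak. The share was 3.80% of 815 when peaks of the E2F3 antibody in either genotype were left out. With both HELLS lists cut at a score of 100 it was 25% of 8 peaks, and 3 of those 8 overlapped the whole null list. With 1 library a group there was no replicate error. All intervals here cover counting error only and treat peaks as independent.

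A peak counted as lower or higher if it differed by 2-fold or more after scaling and if its own 95% interval left out 1. By that rule 247 of the 852 peaks (29%) were lower in E2f3-null cells, where 11.1% of all 2489 wild-type HELLS peaks were, and 2 were higher, where 0.362% of all were. The median log2 ratio (0.5 added to each read count) was −1.59 at these peaks, against 0.04 at peaks with an E2F3 peak. Scaled to the median of the 1245 HELLS regions listed in both genotypes, which lay at 0.18 on the log2 scale, 393 of the 852 were lower and 1 was higher.

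**Figure D1:**
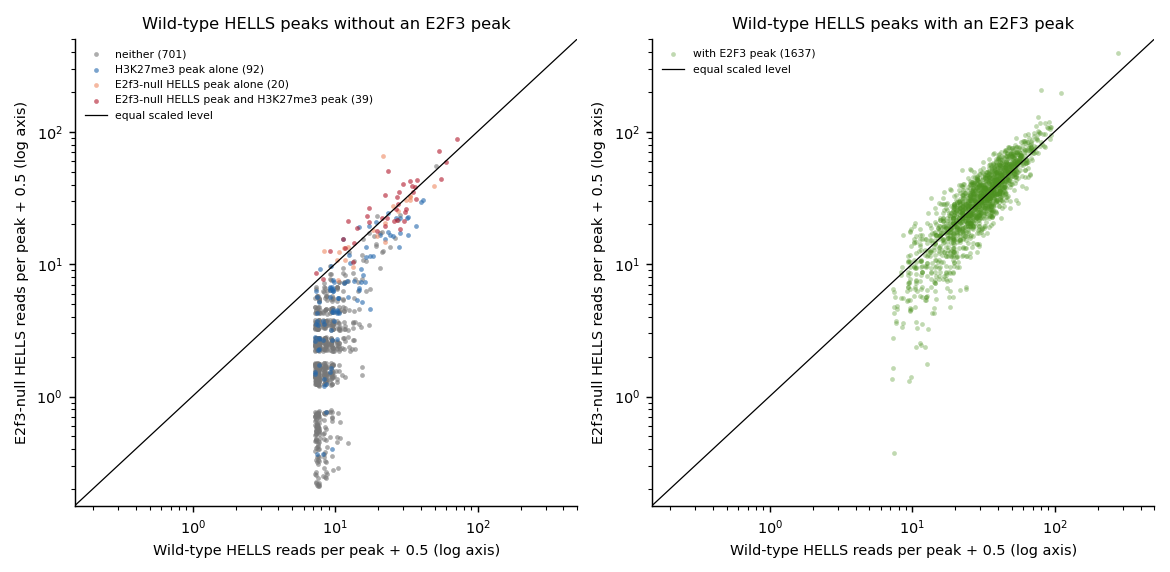
HELLS reads in each wild-type HELLS peak, in E2f3-null (vertical) and wild-type cells (horizontal), both with 0.5 added, on log axes and moved slightly at random to separate equal counts. The left panel shows the 852 peaks without an E2F3 peak, coloured by the lists they overlap, and the right panel shows the 1637 with one; the line marks equal scaled levels. In the left panel most points pile up at 7 to 10 wild-type reads and fall below the line, while peaks listed in the null lie along it.

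Overlap with the other lists split the 852 peaks into 4 classes. There were 39 that overlapped both an E2f3-null HELLS peak and a wild-type H3K27me3 peak, 20 that overlapped a null HELLS peak alone, 92 that overlapped an H3K27me3 peak alone, and 701 that overlapped neither. The HELLS ratio of E2f3-null to wild-type cells was 1.09 (0.997 to 1.18) in the first class and 1.03 (0.897 to 1.18) in the second. It was 0.582 (0.531 to 0.639) where H3K27me3 stood alone and 0.286 (0.271 to 0.302) in the class of neither list. The classes by null HELLS peak were thus the only ones whose pooled HELLS reads were level between genotypes, which the list used for the split in part fixes. The 247 lower peaks were 233 of the class with neither, 14 of the class with H3K27me3 alone, and none of the 59 with a null HELLS peak.

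Single peaks showed the same range. The highest score of the set was at chr7:87591025-87591512 (score 114.1, in neither list), which held 1 HELLS read in E2f3-null and 15 in wild-type cells, a ratio of 0.0662 (0.00157 to 0.430). The second, chr4:119487288-119487768 (109.3, H3K27me3 alone), held 7 HELLS reads in E2f3-null and 15 in wild-type cells, with an interval of 0.160 to 1.21 that took in 1. Of the 10 highest-scoring peaks 2 were lower in E2f3-null cells by the 2-fold rule, 1 was higher, and the intervals of the other 7 took in 1. The higher one, chrX:98417662-98418097, held 65 HELLS reads in E2f3-null and 21 in wild-type cells, a ratio of 3.07 (1.85 to 5.29), with 4 IgG reads and with 11 E2F3-antibody reads in the null against 10 in wild type. The only other higher peak lay on chromosome 18 and held 50 HELLS reads in E2f3-null and 23 in wild-type cells, a ratio of 2.16 (1.29 to 3.71). At the other end, chr5:124626533-124626814, the largest fall, held no HELLS read in E2f3-null and 12 in wild-type cells, with an interval of 0 to 0.357. With the null set at a floor of 3 reads it was 4.03-fold lower.

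The HELLS ratio was also described within classes of wild-type HELLS reads. Those reads chose the peaks and are the ratio's denominator, so the classes are no control for the choice, and in the open top class the median peak held 25 wild-type reads without an E2F3 peak and 32 with one. At 7 wild-type reads the ratio of E2f3-null to wild type was 0.227 (0.207 to 0.248) at 361 peaks without an E2F3 peak. At the 13 with one it was 0.469 (0.319 to 0.682). At 8 reads it was 0.247 (0.217 to 0.281) at 148 peaks, against 0.885 (0.608 to 1.28) at 8. At 9 to 10 reads it was 0.324 (0.293 to 0.357) at 177 peaks without an E2F3 peak, against 0.901 (0.796 to 1.02) at 58 with one. At 11 to 15 reads it was 0.510 (0.458 to 0.568) at 81 peaks, against 0.910 (0.850 to 0.974) at 134. At 16 reads or more the gap was small, with 0.903 (0.851 to 0.959) at 85 peaks, against 1.07 (1.06 to 1.09) at 1424. The share on the E2f3-null HELLS list followed the same order, at 0.277% of the peaks with 7 reads, 12.3% of those with 11 to 15 and 49.4% (38.4 to 60.5%) of those with 16 or more. At peaks with an E2F3 peak the share was also lower at fewer reads. It was 0% of the 13 with 7 reads, 40.3% (31.9 to 49.1%) of the 134 with 11 to 15, and 79.1% (76.9 to 81.2%) in the top class. Of the 59 peaks listed in the null, 42 came from the 85 with 16 or more wild-type reads.

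**Figure D2:**
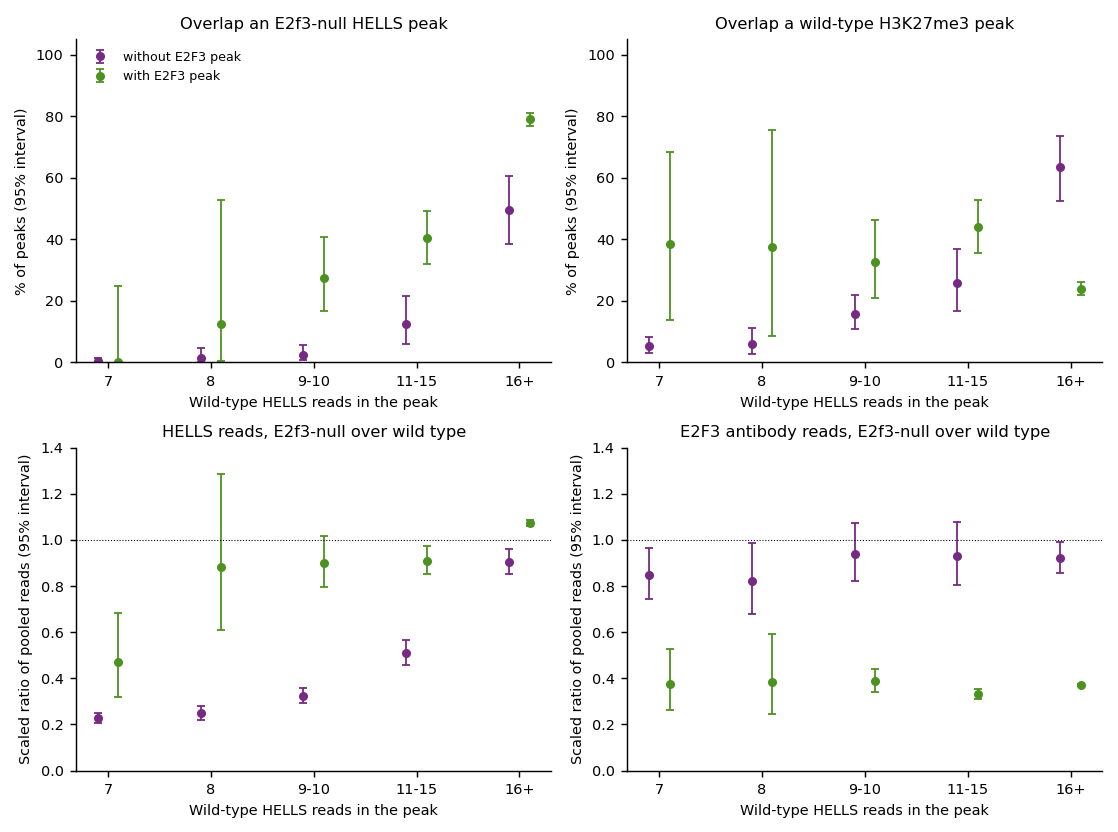
Wild-type HELLS peaks without (purple) and with (green) an E2F3 peak, grouped by the wild-type HELLS reads they hold (horizontal axis). Panels give the percentage that overlaps an E2f3-null HELLS peak or a wild-type H3K27me3 peak and the scaled E2f3-null over wild-type ratio of pooled HELLS or E2F3-antibody reads, with 95% counting intervals. The purple HELLS ratio is 0.227 at 7 reads and 0.903 at 16 or more, the purple E2F3-antibody ratios lie between 0.820 and 0.939, and the green ones reach at most 0.388.

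The E2F3 antibody gave a weak signal at these peaks that was nearly as large in cells without E2f3. The median peak held 2 E2F3-antibody reads in E2f3-null cells (range 0 to 51) and 2 in wild-type cells (range 0 to 46). The pooled ratio of E2f3-null to wild type was 0.905 (0.860 to 0.952), against 0.371 (0.367 to 0.376) at peaks with an E2F3 peak. By the 2-fold rule 6 of the 852 were lower in the null, where 42.5% of all wild-type HELLS peaks were, and 1 was higher, where 0.0402% of all were. The upper quartile of wild-type E2F3-antibody reads was 4, too few for a lower call, so most of the 852 could not be called lower at any ratio. The absence of a wild-type E2F3 peak was the rule of choice and leaves out peaks rich in wild-type E2F3 reads, so this contrast is a description too. Across read classes the ratio lay between 0.820 and 0.939. At 16 or more wild-type HELLS reads it was 0.921 (0.855 to 0.991), against 0.372 (0.368 to 0.377) at peaks with an E2F3 peak.

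E2F3-antibody reads were more frequent at the 59 peaks listed in the null than at the 793 not listed. Their median was 15 in E2f3-null and 16 in wild-type cells, against 1 in E2f3-null and 2 in wild-type cells at the 793. The 59 were also longer, with a median of 556 bp against 321 bp, and held a median of 9 IgG reads against 2. Over IgG, pooled E2F3-antibody reads at the 59 were 2.44-fold in E2f3-null and 2.53-fold in wild-type cells. At the 793 they were 1.54-fold and 1.75-fold. The pooled ratio of E2f3-null to wild type at the 59 was 0.965 (0.882 to 1.06), and 28 of the 59 overlapped a peak of the E2F3 antibody called in E2f3-null cells. Of all 852 peaks 37 did so, or 4.34%, against 832 of 1637, or 50.8%, of the peaks with an E2F3 peak. The most wild-type E2F3-antibody reads of the set were at chr2:90729409-90730719, with 41 in E2f3-null and 46 in wild-type cells. That peak overlapped both a null HELLS peak and an H3K27me3 peak, held 59 HELLS reads in E2f3-null and 60 in wild-type cells, and also held 26 IgG reads.

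Reads of the other ChIP libraries and of IgG gathered at these peaks to different degrees. Over IgG, pooled reads at the 852 peaks were enriched 2.04-fold (1.94 to 2.14) for E2f3-null HELLS, 1.75-fold (1.66 to 1.85) for E2f3-null E2F3 and 1.94-fold (1.84 to 2.04) for wild-type E2F3. At peaks with an E2F3 peak the same values were 3.24-fold, 2.52-fold and 6.80-fold. Peak by peak, E2f3-null HELLS passed IgG by the 2-fold rule at 88 of the 852, where 57% of all wild-type HELLS peaks did, and wild-type HELLS itself at 597, where 84.9% did. For the E2F3 antibody 50 passed in E2f3-null cells, where 43.5% of all did, and 73 in wild-type cells, where 67.2% did. At 641 of the 852 none of the 5 ChIP libraries other than wild-type HELLS passed, against 24 of 1637. Wild-type E2F3 is among the 5, and its peaks were the rule that split the sets. It passed at 1599 of the 1637, so the contrasts that involve it are in large part fixed by the choice and are a description. A peak of 7 reads leaves little room to pass, so failing here says only that an excess was not detectable at this depth.

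Read density at the peaks was also set against flanks 1 to 10 kb away that lay outside all peaks, and IgG was denser than its flanks too. E2f3-null HELLS was 4.33-fold (4.19 to 4.47), E2f3-null E2F3 3.71-fold and wild-type E2F3 4.01-fold denser than in the flanks. IgG was 2.13-fold (2.04 to 2.21) denser at the 852 peaks and 5.05-fold denser at peaks with an E2F3 peak. In the class of neither list these values lay close together: 2.45-fold for null HELLS, 2.25-fold for null E2F3 and 2.52-fold for wild-type E2F3, with IgG at 1.58-fold. In the 59 peaks listed in the null they were 14.3-fold, 10.7-fold and 10.4-fold, with IgG at 4.24-fold. The part of the raised IgG in these results was not tested. The densest IgG was at chr11:100800464-100800697, with 7 HELLS reads in E2f3-null, 14 in wild-type cells and 14 IgG reads, 366 bp from an E2F3 peak.

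**Figure D3:**
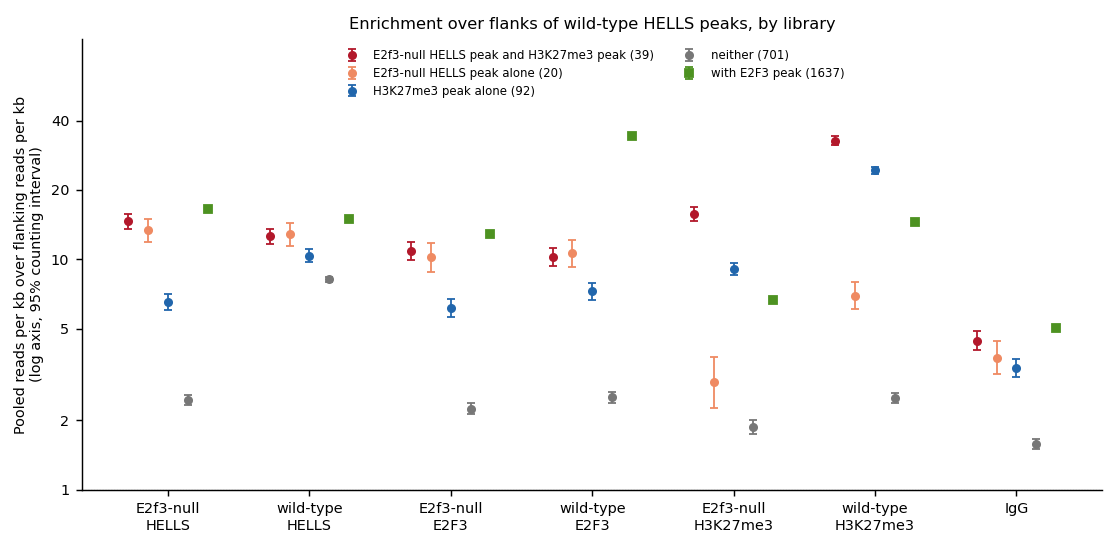
Pooled reads per kb at wild-type HELLS peaks over reads per kb in their flanks (log axis) for each library, with 95% counting intervals; circles are the 4 classes of peaks without an E2F3 peak and squares the 1637 with one. The class of neither list (grey) lies at 1.58 to 2.52 in every library but wild-type HELLS, where it reaches 8.19.

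Reads of the E2f3-null libraries were also centred on the wild-type HELLS summits. Within 100 bp of the summit, E2f3-null HELLS reads at the 852 peaks were 3.42-fold (3.24 to 3.61) denser than 500 to 1000 bp away, against 9.04-fold for wild-type HELLS, whose reads had placed the summit, and 1.68-fold (1.58 to 1.78) for IgG. At the 793 peaks not listed in the null the value was 2.60-fold (2.45 to 2.77) for null HELLS, 2.49-fold for null E2F3 and 1.56-fold (1.46 to 1.67) for IgG. The summed null HELLS reads were thus more central than IgG even where no null peak had been called, and so were those of the E2F3 antibody in cells without E2f3. For E2f3-null H3K27me3 the value there was 2.50-fold. The strands were offset around the summit, least in IgG: plus-strand null HELLS reads at the 852 peaks numbered 1126 in the 200 bp before the summit and 694 in the 200 bp after it, against 672 and 592 for IgG. For the E2F3 antibody in the null they numbered 768 and 499, and for null H3K27me3 895 and 596.

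**Figure D4:**
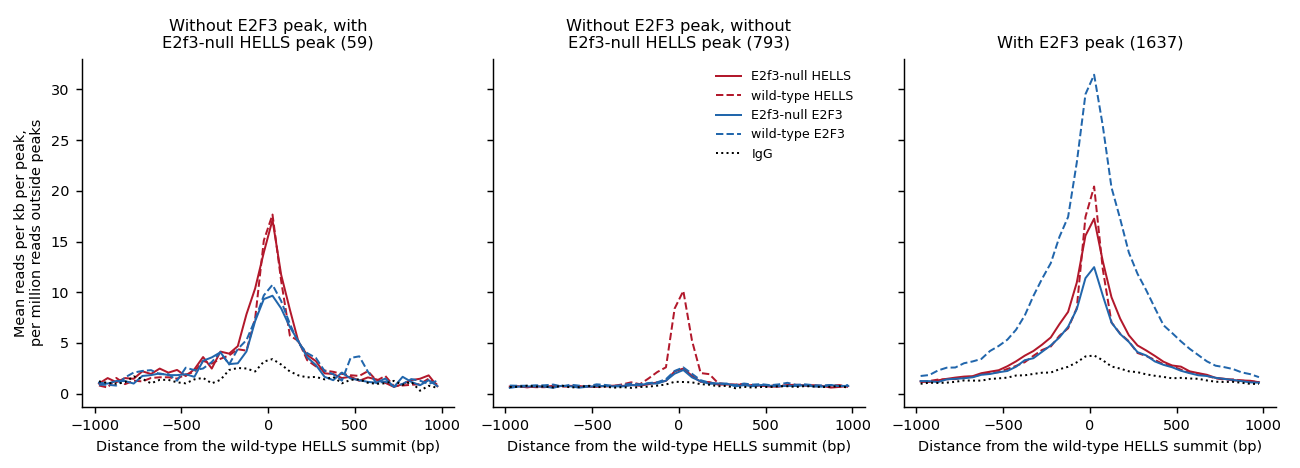
Mean read density per peak around the wild-type HELLS summit, in reads per kb scaled by the library's reads outside peaks, for peaks without an E2F3 peak that were (left) or were not (middle) listed in E2f3-null HELLS and for peaks with an E2F3 peak (right). In the left panel both HELLS lines rise together, in the middle panel only wild-type HELLS stands well above the rest, and in the right panel wild-type E2F3 is the tallest line.

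Wild-type H3K27me3 peaks lay under a minority of the set but under most of its best-covered peaks. Of the 852 peaks 131 overlapped a wild-type H3K27me3 peak, or 15.4% (13.0 to 18.0%), against 427 of 1637, or 26.1% (24.0 to 28.3%), of the peaks with an E2F3 peak. The order turned with depth. Among peaks with 16 or more wild-type HELLS reads, 54 of 85 without an E2F3 peak overlapped H3K27me3, or 63.5% (52.4 to 73.7%), against 341 of 1424, or 23.9% (21.8 to 26.3%), with one. At 9 to 10 reads it was 15.8% (10.8 to 22.0%), against 32.8% (21.0 to 46.3%) with one. At 11 to 15 reads it was 25.9% (16.8 to 36.9%), against 44.0% (35.5 to 52.9%). The intervals overlapped in both of these classes. At 7 reads the share was 5.26% (3.20 to 8.10%) of 361, against 38.5% (13.9 to 68.4%) of 13 with an E2F3 peak, and the intervals stood apart. At 8 reads it was 6.08% (2.82 to 11.2%) of 148, against 37.5% (8.52 to 75.5%) of 8, with intervals that overlapped. The differences were not tested. Of the 59 peaks listed in E2f3-null HELLS, 39 overlapped H3K27me3, or 66.1% (52.6 to 77.9%), against 300 of 1197, or 25.1% (22.6 to 27.6%), of the null-listed peaks with an E2F3 peak. The H3K27me3 reads did not enter the choice of peaks. Over IgG, E2f3-null H3K27me3 passed the 2-fold rule at 85 of the 852, where 12.5% of all wild-type HELLS peaks did, and wild-type H3K27me3 at 137, where 27% did.

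The marked regions were short. The H3K27me3 peaks under the 131 had a median length of 1204 bp (range 215 to 4091 bp), close to the 1230 bp under marked peaks with an E2F3 peak, and none exceeded 5 kb. The HELLS summit fell inside the H3K27me3 peak at 127 of the 131, and within 250 bp of its summit at 98. The median distance between the summits was 78 bp, against 126 bp at the 427.

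H3K27me3 reads at the marked peaks were fewer in E2f3-null cells. The median was 9 H3K27me3 reads in E2f3-null cells (range 0 to 106) and 38 in wild-type cells (range 1 to 436), and 125 of the 131 had a ratio below 1. The marked peaks were chosen by wild-type H3K27me3 reads, so their ratio leans below 1 in the same way as that of HELLS. The pooled ratio of E2f3-null to wild type was 0.391 (0.374 to 0.409), against 0.450 (0.440 to 0.460) at marked peaks with an E2F3 peak. By the 2-fold rule 111 of the 852 peaks were lower, 90 of them marked, where 37% of all wild-type HELLS peaks were. None was higher, where 0% of all were. The level depends on the scaling. Scaled by reads outside peaks, the median log2 ratio over the 4049 regions called in both genotypes was −1.02. Whether the mark or the library differed there cannot be told apart with 1 library per genotype. Scaled to that median, the ratio at the 131 peaks was 0.791 (0.757 to 0.827). Each genotype had 1 H3K27me3 library.

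The 3 peaks with the most wild-type H3K27me3 reads held fewer in E2f3-null cells when scaled by reads outside peaks. At chr17:34808682-34809665 there were 80 H3K27me3 reads in E2f3-null and 436 in wild-type cells, a ratio of 0.246 (0.192 to 0.313), with 44 HELLS reads in E2f3-null and 55 in wild-type cells. At chr13:93195800-93196787 there were 106 in E2f3-null and 324 in wild-type cells, a ratio of 0.439 (0.349 to 0.549), with 43 HELLS reads in E2f3-null and 37 in wild-type cells. At chr5:144014871-144016008 there were 106 in E2f3-null and 290 in wild-type cells, a ratio of 0.491 (0.389 to 0.615), with 87 HELLS reads in E2f3-null and 71 in wild-type cells. Scaled to the regions called in both genotypes, the H3K27me3 ratio stayed below 1 at the first, at 0.498 (0.387 to 0.633). It was 0.888 (0.706 to 1.11) at the second and 0.992 (0.787 to 1.24) at the last, with intervals that took in 1. All 3 overlapped a null HELLS peak, and their HELLS intervals took in 1. Among the 39 peaks with both lists 28 were lower in H3K27me3, and among the 92 with H3K27me3 alone 62 were.

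**Figure D5:**
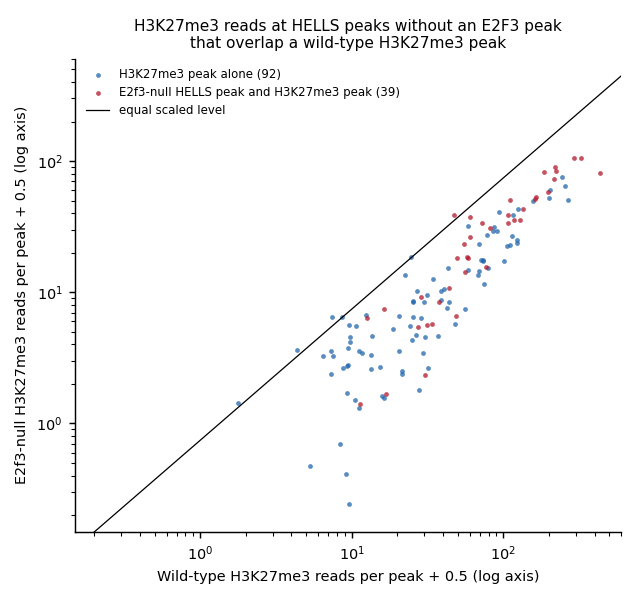
H3K27me3 reads in E2f3-null (vertical) and wild-type cells (horizontal) at the 131 HELLS peaks without an E2F3 peak that overlap a wild-type H3K27me3 peak, with 0.5 added, on log axes and moved slightly at random; the line marks equal levels when scaled by reads outside all peaks. Most points of both classes lie below the line, and 6 of the 131 peaks had a ratio above 1.

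The peaks were spread over all autosomes. Chromosome 11 held 84 of the 852, or 9.86%, against 6.78% of the peaks with an E2F3 peak and 5.89% of IgG reads, and its density of 0.707 peaks per Mb was the highest of any chromosome. The same chromosome was also the densest in peaks with an E2F3 peak, at 0.934 per Mb. Chromosome X held 6, or 0.704%, against 0.733% of the peaks with an E2F3 peak and 3.28% of IgG reads, so both sets were sparse there. Of those 6, 3 were listed in the null. No peak of the set lay on Y. Along the chromosomes the stretch from 80 to 100% of the length held 245 peaks, or 28.8% (25.7 to 31.9%), against 26.6% (24.4 to 28.8%) of the peaks with an E2F3 peak and 23.4% of IgG reads. That tilt did not differ between the sets beyond counting error. Clusters were few, since 22 of the 852 lay within 10 kb of another, against 71 of 1637.

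Seen from the other lists, these peaks were a small share. The 59 overlaps touched 59 of 4740 E2f3-null HELLS peaks, or 1.24%, and all 59 null peaks were themselves without a wild-type E2F3 peak. They made up 5.99% of the 985 null HELLS peaks without one. For H3K27me3 the 131 peaks touched 130 of 17064 wild-type peaks, or 0.762%. The E2f3-null HELLS list was the longer of the HELLS lists and had no false discovery rate above 3.65%, whereas 2196 of the 2489 wild-type HELLS peaks exceeded 5%. Both lists were called at the same p cutoff and had the same lowest score, 50.02.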

How the data were processed

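ChIP-seq reads and peaks of 6 ChIP libraries and 1 IgG library were analysed, grouped by the labels' genotype and antibody. Libraries went through 22 cycles of PCR and single-end sequencing of 36 nt, per the labels' protocols. Deposited reads are alignments to mm9, as the submitters' processing notes name it, and the aligner is not given in the sources used here. Almost all reads were 25 bp long, and duplicates had largely been removed. The authors ran MACS 1.4.0beta on every library separately, with IgG of the same genotype as control and a p cutoff of 1e-05, per the file headers. That control held 3444066 tags for wild-type HELLS, fewer than the deposited IgG file. The authors' tables hold a tag count, a score, a fold enrichment over the local background and a percent false discovery rate for every peak, used only to describe, rank and filter peaks.

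Distinct reads were moved 60 bp towards the fragment centre and counted in each peak with Python 3.11.15, NumPy 2.4.6, pandas 2.3.3 and SciPy 1.17.1. Libraries were scaled by distinct reads outside the 27092 merged peak regions of all lists (21.5 Mb). Ratios of pooled reads carry exact binomial intervals and shares carry Clopper-Pearson intervals, both at 95%, and a peak was called at a ratio of at least 2-fold with an interval that left out 1. Log2 ratios used 0.5 added reads, and other ratios and the calls kept a count of 0 as it was. The floor of 3 reads was used only for the fold of a named peak without a null HELLS read. With 1 library per group no p-value was computed. Named regions were those highest in score, overall and in each class, with the largest fall or rise, with the most wild-type E2F3, wild-type H3K27me3 or IgG reads, and nearest to the E2F3 edge. The peak set, its classes and these rules were chosen with earlier results of these data known. The classes of wild-type HELLS reads were added after the reads had been counted. Alternatives changed the overlap rule, the score, the scaling, the window, the fold threshold, the reads kept and the chromosomes used.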

Additional observations from a re-analysis of the deposited data

How the results depend on the processing

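Each of 9 results was recomputed under those of 11 alternatives that could touch it, which gave 59 values. No ratio changed direction, and 36 values stayed within the 95% interval or, for counts, within 1.5 times. Restricting both HELLS lists to peaks of score 100 or more left 8 peaks of the set. Of these peaks 25% overlapped an E2f3-null HELLS peak of that score and 37.5% a wild-type H3K27me3 peak. Their median HELLS log2 ratio was −0.69, 2 were lower and 1 was higher, null HELLS was 4.72-fold and wild-type E2F3 2.72-fold over IgG, and the H3K27me3 ratio was 0.289. Matching by summits within 250 bp gave 19.3% on the E2f3-null HELLS list and 11.5% on the H3K27me3 list. Both shares are of a larger set of 1225 peaks, which takes in peaks that overlap an E2F3 peak. Leaving out peaks of the E2F3 antibody in either genotype gave 3.80% on the null HELLS list, with null HELLS 1.84-fold and wild-type E2F3 1.79-fold over IgG. A window of 500 bp at the summit gave a median HELLS log2 ratio of −1.45, with null HELLS 1.86-fold and wild-type E2F3 1.80-fold over IgG. Scaling by all distinct reads gave 1.78-fold for wild-type E2F3 over IgG and 0.433 for the H3K27me3 ratio. When the regions shared by both genotypes set the scale, 393 peaks were lower and 1 was higher in HELLS, with an H3K27me3 ratio of 0.791. On autosomes alone 1 peak was higher in HELLS, because the other higher peak lay on chromosome X. For the other values that moved, the cause was not tested, apart from the smaller number of peaks. No paired analysis was possible because each group held 1 library, and no replicate could be left out. Depth limits the single peaks: with 7 or 8 wild-type HELLS reads, a ratio near 0.5 cannot be told from 1.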

Other observations

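E2f3-null H3K27me3 peaks overlapped 70 of the 852 HELLS peaks without an E2F3 peak, or 8.22% (6.46 to 10.3%), against 221 of 1637, or 13.5% (11.9 to 15.2%), of those with one. Of the 70, 27 were among the 39 peaks that overlapped both an E2f3-null HELLS and a wild-type H3K27me3 peak, 42 among the 92 with H3K27me3 alone, and 1 among the 701 with neither. Over IgG, E2f3-null H3K27me3 reads were still 4.96-fold (4.61 to 5.34) denser at the 131 marked peaks, and wild-type H3K27me3 reads 12.7-fold (11.9 to 13.5). At marked peaks with an E2F3 peak the values were 3.88-fold in E2f3-null and 8.61-fold in wild-type cells. At the 20 peaks on the null HELLS list alone, E2f3-null H3K27me3 was 0.789-fold (0.585 to 1.05) and wild-type H3K27me3 2.31-fold over IgG, with 6 of the 20 lower in the null by the 2-fold rule, where 37% of all wild-type HELLS peaks were.

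Distances to wild-type E2F3 peaks are given by class, and no difference between classes was tested. The median was 30.7 kb for the 59 peaks listed in E2f3-null HELLS and 52.5 kb for the 793 not listed. An E2F3 peak lay within 10 kb of 16 of the 59, or 27.1% (16.4 to 40.3%), and of 121 of the 793, or 15.3% (12.8 to 18.0%), with intervals that overlapped. For the 39 peaks that also overlapped H3K27me3 the share was 30.8% (17.0 to 47.6%), and for the 701 on neither list 14.98% (12.4 to 17.8%). The peak at chr5:31553884-31554476 is an example of one on neither list that kept HELLS reads, with 17 in E2f3-null and 21 in wild-type cells, a ratio of 0.804 (0.398 to 1.60), beside 10 IgG reads.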
